A study of Mus musculus with 2 samples.

Results

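MHC class I molecules present peptides from inside the cell to CD8+ T cells and to natural killer cells. The proteasome cuts the peptides, the TAP transporter carries them into the endoplasmic reticulum, tapasin holds TAP to the empty class I molecule, and a heavy chain bound to beta-2 microglobulin takes the peptide to the cell surface. Interferons induce 3 alternative catalytic subunits that turn the constitutive proteasome into the immunoproteasome, and the NLR protein NLRC5 acts as a transactivator of class I genes. Leukocytes express these genes strongly, and salivary epithelial cells are known to carry class I molecules as well. The 10 genes described here are H2-K1, H2-D1, B2m, Tap1, Tap2, Tapbp, Psmb8, Psmb9, Psmb10 and Nlrc5. They were chosen as a list by gene name, with earlier results of these arrays known but with no use of their own values, out of 21346 genes with a probe that at least 1 array read well above background.

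Submandibular glands of female C57BL/6 mice (C57BL/6N in the methods) were dissociated, and the cells that carry EpCAM were selected with magnetic beads. The glands were those of a 9-week-old (young) and a 24-month-old (aged) animal, as the series text gives 1 mouse per age, and each RNA was labelled with Cy3 and hybridized to 1 Agilent mouse array. The differences below therefore have no replicates behind them, and no p-value is given. The fraction is bulk material in which acinar, ductal and other EpCAM-positive cells were pooled, and fewer cells of a type and less RNA per cell cannot be told apart. According to the methods, young and aged mice came from different sources, so age and source cannot be told apart either. Of 59305 transcript spots, 55.4% (young) and 50.8% (aged) were well above background. Signals are given as the scanner software's processed intensity, with the software's own error after ±, and levels as log2 of that intensity over the 75th percentile of the array, which was 256 (young) and 198 (aged). Differences are aged minus young on the log2 scale. The error of a difference, also after ±, combines the software's errors and covers neither mice nor hybridizations. Over 293 probes printed in several spots, the spots of a probe differed by a median standard deviation of 0.033 on the same scale. As for the label of the fraction, 11 of 12 epithelial genes were measured on both arrays, and Epcam read 1778 (young) and 1573 (aged), but all 12 macrophage and dendritic cell genes were measured on both arrays as well, so transcripts of other cell types were present.

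The 10 genes were read by 17 probes of 60 bases. All 10 had a probe well above background on both arrays, 4 of them had a second such probe, and 3 further probes, 1 each for Tap2, Psmb9 and Nlrc5, were well above background on neither array and give no difference. The brightest probe stands for its gene. Shown first are 4 probes that bear most on the results, namely the probe of the gene with the lowest difference (Psmb9), the probe of another immunoproteasome gene (Psmb8), the dimmer of the 2 Tap1 probes and the dimmer of the 2 H2-K1 probes. They lie on chromosome 17 of NCBI37 (mm9), the build of the files, at chr17:34319174-34319233 on the reverse strand, chr17:34337771-34337830 on the forward strand, chr17:34330854-34330913 on the forward strand and chr17:34133984-34134043 on the reverse strand. Each of the 4 has 2 reading frames without a stop codon. The sequences are given 5′ to 3′ as printed on the array.
Psmb9 (A_51_P369803): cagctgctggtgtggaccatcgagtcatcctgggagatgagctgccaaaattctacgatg
Psmb8 (A_51_P345367): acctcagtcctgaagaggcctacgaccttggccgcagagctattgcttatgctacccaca
Tap1 (A_51_P100327): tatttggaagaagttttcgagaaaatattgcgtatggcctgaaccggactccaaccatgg
H2-K1 (A_55_P2049647): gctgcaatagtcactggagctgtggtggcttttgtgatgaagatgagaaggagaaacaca

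Class I heavy chain genes are close relatives, so the probes were compared with all others on the array. The dimmer H2-K1 probe shares a run of at least 20 bases with 1 probe for H2-L (41 of 60 bases identical) and 1 probe for H2-T23 (39 of 54 aligned bases). None of the other 16 probes shares such a run with a probe of another gene. Matches to transcripts that have no probe on the array were not looked for, and the values of H2-K1 and H2-D1 may hold signal from related heavy chains.

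None of the 10 genes differed by 2-fold between the ages. Of all 18745 genes that both arrays measured, 1.52% passed 2-fold towards higher and 3.05% towards lower signals in the aged cells. A count of 0 among 10 does not set these genes apart from that background. With the arrays centred on the median the same 2 groups held 464 and 417 genes, against 284 and 571 here, and with spike-in controls as the common level 150 and 929, while the count among the 10 genes remained 0 in both directions. The differences ran from -0.52 for Psmb9 to 0.29 for H2-K1, with a median of 0.03, whereas the median of all genes was 0.09. Of the 10 genes, 6 had a difference above 0, against 59.9% of all genes, and 4 had a difference below 0, against 40.1%. These counts turned with the scaling, to 8 above 0 and 2 below with arrays centred on the median, 2 and 8 with quantile normalization or spike-in controls, and 1 and 9 with loess. All 10 lay between the 5th and the 95th percentile of all genes (-0.74 and 0.70), and 8 of them between the 25th and the 75th (-0.17 and 0.34). Tap1 and Psmb9 were the 2 genes under the 25th percentile.

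**Figure D1:**
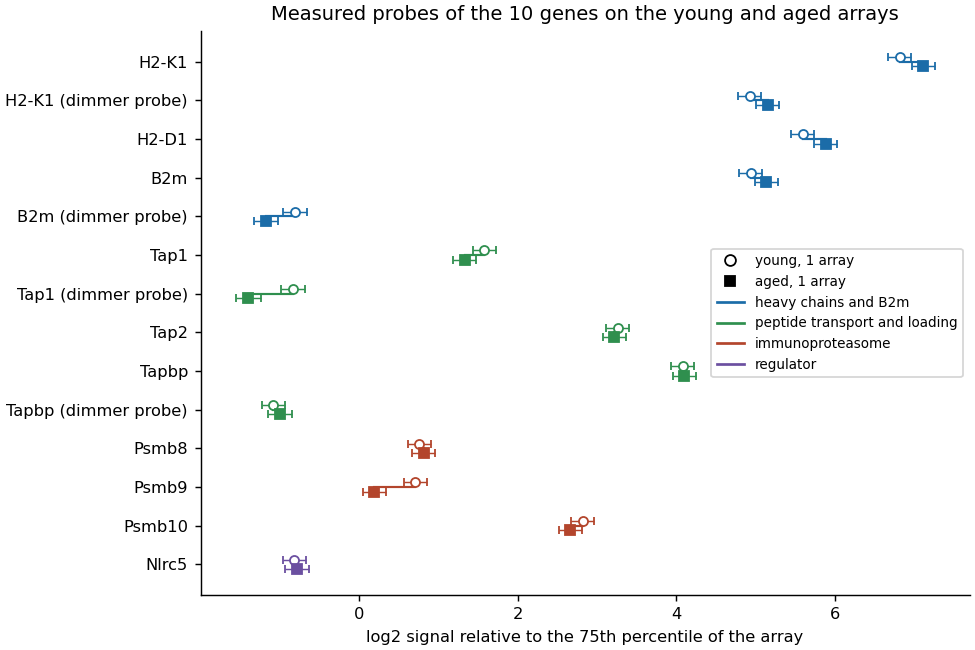
Levels of the 14 probes that were well above background on both arrays, as log2 of the signal over the 75th percentile of the array (horizontal axis), with open circles for the young and filled squares for the aged array and bars for the software's error of 1 spot. The pairs of each probe lie close together, with the widest gaps at the dimmer Tap1 probe and at Psmb9. Positions of different probes do not compare the abundance of their transcripts.

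The heavy chains and their light chain had the highest differences of the 10 genes under the 75th percentile. H2-K1, 1 of the classical heavy chains of this strain, read 28920 ± 2892 (young) and 27399 ± 2740 (aged). After scaling, its level was 6.82 (young) and 7.11 (aged), a difference of 0.29 ± 0.20, or 1.23-fold higher. The second H2-K1 probe, which is printed above, had a similar difference of 0.23, from signals of 7780 and 7052. H2-D1, the other classical heavy chain, read 12356 ± 1236 (young) and 11683 ± 1168 (aged), a difference of 0.29 ± 0.20. B2m, the light chain that all of these heavy chains bind, read 7862 ± 786 and 6967 ± 697, a difference of 0.20 ± 0.20. The raw signals of all 3 genes were therefore a little lower on the aged array, and their scaled levels a little higher. Between genes, B2m minus H2-K1 was -0.10 ± 0.29 (0.04 with loess, 0.02 with quantile normalization) and B2m minus H2-D1 was -0.09 ± 0.29, each within the error. A second B2m probe, designed on the transcript AK086184 and located at chr2:121974599-121974658 of mm9, read 147 (young) and 87.7 (aged). Its difference was -0.37, of the other sign than that of the main B2m probe, which lies at chr2:121978401-121978460.

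The sign of the heavy chain and B2m differences depended on how the arrays were scaled. Bright probes tended to be higher on the aged array, and among the 938 genes as bright as H2-K1 and H2-D1 the median difference was 0.46. Within these genes H2-K1 lay at percentile 31.8 and H2-D1 at percentile 31.6, and B2m lay at percentile 31.6 of the 937 genes as bright as it. With loess on the mean signal, which removes this trend, the differences were -0.25 for H2-K1, -0.16 for H2-D1 and -0.21 for B2m. With quantile normalization they were -0.28, -0.25 and -0.26, and with spike-in controls as the common level 0.04, 0.04 and -0.06. Under every one of the 13 alternatives, they stayed under 2-fold.

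Tap1, Tap2 and Tapbp had differences below those of the heavy chains under the 75th percentile, but with quantile normalization Tap2 (-0.25) and Tapbp (-0.25) did not lie below H2-K1 (-0.28). Tap1, which forms the peptide transporter together with Tap2, read 766 ± 76.7 (young) and 498 ± 49.9 (aged), a difference of -0.25 ± 0.20, or 1.19-fold lower. The second Tap1 probe read 144 ± 14.8 and 75.2 ± 8.37, a difference of -0.56 ± 0.22, or 1.48-fold lower. Both Tap1 probes were thus lower on the aged array, each by more than the error. Tap2 read 2462 ± 246 (young) and 1840 ± 184 (aged), a difference of -0.05 ± 0.20. The subunits of the transporter differed from each other by -0.20 ± 0.29 (Tap1 minus Tap2), which is within the error. Tapbp encodes tapasin, and its brighter probe read 4346 ± 435 and 3395 ± 339, a difference of 0.02 ± 0.20. Its second probe had a difference of 0.08 ± 0.21, from signals of 121 and 99.4. Tap1 minus H2-K1 was -0.54 ± 0.29, but only -0.05 with quantile normalization and -0.16 with loess, both within the error. Tap1 stayed below 0 under all 13 alternatives, between -0.51 and -0.08, whereas Tap2 ran from -0.33 to 0.13 and Tapbp from -0.32 to 0.19.

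Of the 3 immunoproteasome genes, Psmb9 had the lowest difference. Psmb9 encodes the subunit beta 1i (LMP2) and read 419 ± 42.0 (young) and 226 ± 22.8 (aged). Its level was 0.71 (young) and 0.19 (aged), a difference of -0.52 ± 0.21, or 1.43-fold lower, which is 2.51 times its error. It lay at percentile 9.07 of all genes and at percentile 8.32 of the 937 genes of like brightness. It was the lowest of the 10 genes and below 0 under the 75th percentile and all 13 alternatives, between -0.77 and -0.34. Psmb10 encodes beta 2i (MECL-1) and read 1810 ± 181 and 1255 ± 126, a difference of -0.16 ± 0.20. Psmb8 encodes beta 5i (LMP7) and read 433 ± 43.4 and 349 ± 35.0, a difference of 0.06 ± 0.20. Psmb9 minus Psmb8 was -0.58 ± 0.29, about 2 times its error.

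**Figure D2:**
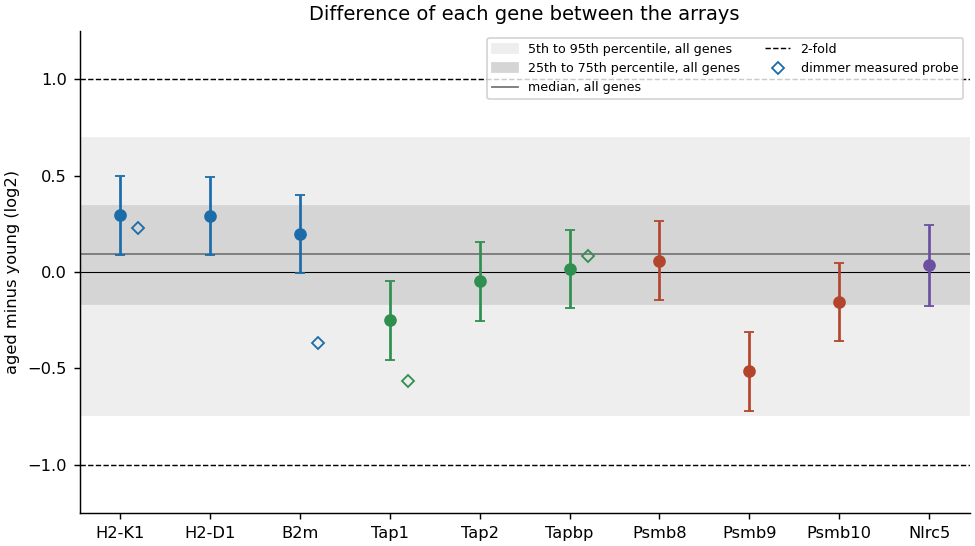
Aged minus young difference (log2) of each gene, with filled circles for the brightest probe and bars for its software error, and open diamonds for a second measured probe. Grey bands give the 5th to 95th and 25th to 75th percentiles of all genes measured on both arrays, and dashed lines 2-fold. All points lie inside the dashed lines, H2-K1 and H2-D1 are highest at 0.29 and Psmb9 is lowest among filled circles at -0.52.

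Each immunoproteasome subunit replaces 1 constitutive subunit, and all 3 constitutive partners had a difference above 0 under the 75th percentile, although that of Psmb6 turned to -0.11 with quantile normalization and -0.01 with loess. Psmb6, which Psmb9 replaces, differed by 0.43, from a signal of 9631 to 9997, and its second probe by the same 0.43. Psmb5, which Psmb8 replaces, differed by 0.46, from 2162 to 2293. Psmb7, which Psmb10 replaces, differed by 0.32, from 1447 to 1396. The difference of the immunoproteasome gene minus that of its partner was -0.94 ± 0.29 for Psmb9 and Psmb6, equal to a ratio 1.92-fold lower on the aged array. It was -0.48 ± 0.29 for Psmb10 and Psmb7 and -0.40 ± 0.29 for Psmb8 and Psmb5. A factor common to an array cancels in these values, and changes of filter kept the same probes. Most of the 13 alternatives therefore could not change them. With quantile normalization, loess, normexp background correction or averaged probes, which could change at least 1 of them, all 3 kept their sign. A trend with brightness does not cancel, and Psmb6 (9631, young) was far brighter than Psmb9 (419, young). Psmb9 minus Psmb6 shrank to -0.43 with quantile normalization and to -0.59 with loess. Psmb8 minus Psmb5 shrank to -0.25 and -0.22 under the same 2 settings, both within the error of 0.29. Psmb10 minus Psmb7 was -0.49 and -0.48 there. Each value rests on 1 array per age, and under the 75th percentile only that of Psmb9 exceeded 2 times its error.

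**Figure D3:**
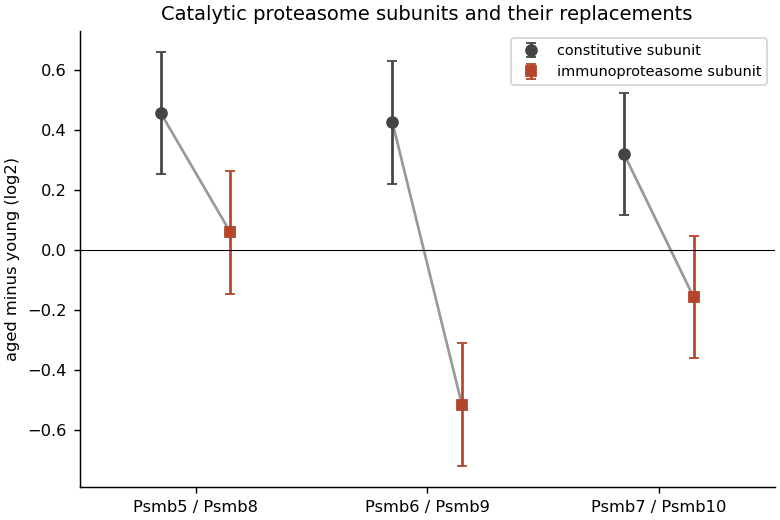
Aged minus young difference (log2) of the 3 constitutive catalytic subunits (circles) and of the immunoproteasome subunits that replace them (squares), with the software's error as bars and lines joining partners. In each pair the immunoproteasome subunit lies below its partner, by 0.94 on the log2 scale for Psmb6 and Psmb9, the widest of the 3 gaps.

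Nlrc5, the class I transactivator, was dim on both arrays but measured. Its brighter probe, at chr8:97051105-97051164 of mm9, read 146 (young) and 115 (aged), a difference of 0.04 ± 0.21 that ran from -0.22 to 0.21 over the alternatives. The other probe read 14.4 and 8.59 and was well above background on neither array. Ciita, the related transactivator of class II genes, had a difference of -2.49 (5.63-fold lower), from 253 ± 25.5 to 34.7 ± 4.82, by the 1 of its 4 probes that both arrays measured, and of -1.43 with normexp background correction. A further Ciita probe, well above background on the young array only, gives no fold. Ciita was the 1 gene past 2-fold among 30 measured genes of interferon signalling and class I regulation. Of these 30, 21 had a difference below 0, against 40.1% of all genes, and the median was -0.15 (0.03 with arrays centred on the median). This count turned with the scaling. Above 0 were 16 of the 30 with arrays centred on the median and 3 with quantile normalization. With spike-in controls 3 genes of the list passed 2-fold. In the same list, the interferon-responsive factor Irf1 differed by -0.43 and the gamma interferon receptor gene Ifngr1 by -0.54, both named after their values were seen. The other way went 9 genes of the list, among them Socs1 with 0.40, Irf3 with 0.23 and Ifnar2 with 0.22. Of the interferon genes in the list, Ifng and Ifnb1 were well above background on neither array, whereas Ifnl3, which encodes an interferon lambda, read 88.9 (young) and 58.1 (aged), a difference of -0.24 ± 0.23.

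Of the 10 genes, 7 sit in the MHC on chromosome 17, and Tap1 and Psmb9, the genes with the lowest differences, start side by side and run in opposite directions there. Their promoters were therefore set beside those of the heavy chains and B2m. The sequences are those of RefSeq on GRCm38.p6, a later build than that of the files, and 8 of the 10 genes had an entry, with 2 starts for H2-K1. Tap2 and Nlrc5 are named only. Capitals mark 3 motifs, searched on both strands in the 250 bases before the start and chosen with these promoters in view. They are GGGGATTCCCC, the NF-kB element as read from the H2-K1 promoter itself, AANNGAAA, a core bound by interferon regulatory factors, and TGACG, the core of the site of CREB and ATF proteins. The motifs do not overlap each other in the sequences shown. The first 3 sequences are the 250 bases before the start of H2-K1 (chr17:34000348-34000597, reverse strand), H2-D1 (chr17:35262844-35263093, forward strand) and B2m (chr2:122147437-122147686, forward strand), and the last holds the 225 bases between the starts of Psmb9 and Tap1 (chr17:34187331-34187555), written on the strand of Tap1.
H2-K1: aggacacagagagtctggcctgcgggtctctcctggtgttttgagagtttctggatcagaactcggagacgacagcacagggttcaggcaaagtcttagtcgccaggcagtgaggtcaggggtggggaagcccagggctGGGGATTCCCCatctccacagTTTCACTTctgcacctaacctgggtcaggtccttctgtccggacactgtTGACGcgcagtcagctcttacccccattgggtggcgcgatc
H2-D1: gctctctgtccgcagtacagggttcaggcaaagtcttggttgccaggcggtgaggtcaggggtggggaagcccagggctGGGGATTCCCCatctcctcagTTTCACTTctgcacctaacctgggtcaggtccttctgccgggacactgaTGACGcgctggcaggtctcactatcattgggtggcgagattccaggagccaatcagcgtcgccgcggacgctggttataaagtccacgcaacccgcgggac
B2m: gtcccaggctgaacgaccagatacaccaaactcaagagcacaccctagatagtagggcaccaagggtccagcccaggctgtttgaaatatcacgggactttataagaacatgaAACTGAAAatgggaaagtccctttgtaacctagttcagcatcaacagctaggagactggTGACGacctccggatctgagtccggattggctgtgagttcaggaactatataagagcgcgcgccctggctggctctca
Psmb9 and Tap1: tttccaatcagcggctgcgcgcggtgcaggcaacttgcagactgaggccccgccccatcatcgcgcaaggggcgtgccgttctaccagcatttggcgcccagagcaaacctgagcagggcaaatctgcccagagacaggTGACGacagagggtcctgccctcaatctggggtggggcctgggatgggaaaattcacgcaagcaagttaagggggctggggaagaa

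The H2-K1 and H2-D1 windows matched at 166 of 190 aligned bases (87.4%) and hold all 3 motifs in the same order. Any link between these windows and the differences between the ages was not tested. GGGGATTCCCC occurred in 10 of 32851 promoters (0.0304%), namely both starts of H2-K1, from which it was read, H2-D1, the heavy chain gene H2-Q6 and 6 genes outside the MHC. AANNGAAA occurred in 21.3% of all promoters and in 4 of the 9 promoters of the genes described here, both starts of H2-K1, H2-D1 and B2m. TGACG occurred in 17.8% of all promoters and in 6 of the 9, adding the promoters of Psmb9 and Tap1, which share the same copy. The windows of the 2 H2-K1 starts overlap and hold the same copies too. CCAAT and TTCNNNGAA were searched as well but not marked. CCAAT occurred in 33.8% of all promoters and in 7 of the 9, among them those of Psmb9 and Tap1. TTCNNNGAA occurred in 7.02% of all promoters and in 1 of the 9, that of Psmb8. A match of letters is a description of the window and not of a bound factor.

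The wider pathway was described by lists of genes not picked for how they moved, though chosen with earlier results of these arrays known. Of 35 heavy chain genes of the class I type, 24 were measured on both arrays. Of these, 17 were above 0, against 59.9% of all genes, and 7 below 0, against 40.1%. Their median was 0.22, which turned to -0.11 with loess, -0.03 with quantile normalization and -0.04 with spike-in controls. As with H2-K1 and H2-D1, values of the closely related H2 genes may hold signal from each other. None of the 24 passed 2-fold towards higher signals, and 2 passed it towards lower ones. These were Fcgrt, the neonatal receptor for immunoglobulin G, with -1.11 (215 to 76.7), and Hfe, a regulator of iron uptake, with -1.11 (377 to 135). Neither presents peptide. Neither passed 2-fold with arrays centred on the median (-0.94 for both) or with normexp (-0.69 and -0.88). Cd1d1, which presents lipids, had a difference of -0.997, just short of the threshold, and passed it with loess (-1.03). Among the chaperones and peptidases of peptide loading, 0 of 15 measured genes passed 2-fold in either direction, and 12 had a difference above 0, where 59.9% of all genes did, with a median of 0.42. That median was 0.09 with quantile normalization, 0.10 with loess and 0.17 with spike-in controls. Calreticulin (Calr) and ERp57 (Pdia3), which sit beside tapasin in the loading complex, differed by 0.80 and 0.48. They were named after their values were seen, and Canx and Tapbpl of the same list differed by 0.27 and 0.07. Of 12 measured proteasome partners and assembly factors, 11 had a difference above 0, the median was 0.27 and 0 passed 2-fold. With loess 6 of the 12 were above 0 and the median was 0.004, and with spike-in controls 7 were above 0 and the median was 0.015. Psme1, a subunit of the interferon-induced activator PA28, differed by 0.28. The array has no probe named Psme2.

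Most markers of leukocytes and fibroblasts were lower on the aged array. Of 10 general leukocyte genes, 8 were measured on both arrays, all 8 had a difference below 0, and 5 passed 2-fold (2 with normexp). Cd53 and Arhgap15, measured on the young array alone, were lower by at least 3.02-fold and 3.14-fold. Among the 20934 genes with a difference or such a limit, 2.57% passed 2-fold towards higher and 5.25% towards lower, and the 10 genes add 0 to either since all were measured on both arrays. The median of the 8 leukocyte genes was -1.35 (-0.84 with normexp), and the summed level of the list, in units of the 75th percentile, was 34.1 (young) and 21.6 (aged). Ptprc, which encodes CD45, differed by -0.21 by its brightest probe and by -1.53 by another. Of 12 macrophage and dendritic cell genes, all 12 were below 0 and 9 at least 2-fold lower, with a median of -1.15 and a summed level of 216 (young) and 113 (aged). Centring the arrays on the median left 6 of the 12 at least 2-fold lower and 1 above 0, with a median of -0.98. Lyz2, a lysozyme gene, had a difference of -1.91 and Itgax, which encodes CD11c, of -1.64. Of 10 T and natural killer cell genes, 7 were measured with a median of 0.56 (0.31 with spike-in controls, 0.35 with loess) and a summed level of 11.2 and 14.1. The brightest of the 7 were Cd4 (1597 young, 1278 aged), with a difference of 0.05, and Cd3e (999 and 1142), whose 0.56 is the median. The other Cd4 probes were well above background on neither array, and the second Cd3e probe differed by 0.21 (199 and 178). Gzma, the granzyme of cytotoxic cells, was 5.47-fold higher, a difference of 2.45 (1.40 with normexp). Cd3g, a chain of the T cell receptor complex measured on the young array alone, was lower by at least 2.06-fold. Cd8a was well above background on neither array. Only 2 of 6 B cell genes were measured on both arrays, Cd79b with -2.14 and Pax5 with 0.17. Cd79a was well above background on neither array. Of 6 fibroblast genes, 5 were measured with a median of -1.44 and a summed level of 18.4 and 8.63, and of 7 endothelial genes, 6 with a median of -0.56 and a summed level of 6.12 and 4.24. The part of these cells in the values of Psmb9, Tap1 and the other 8 genes was not tested.

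**Figure D4:**
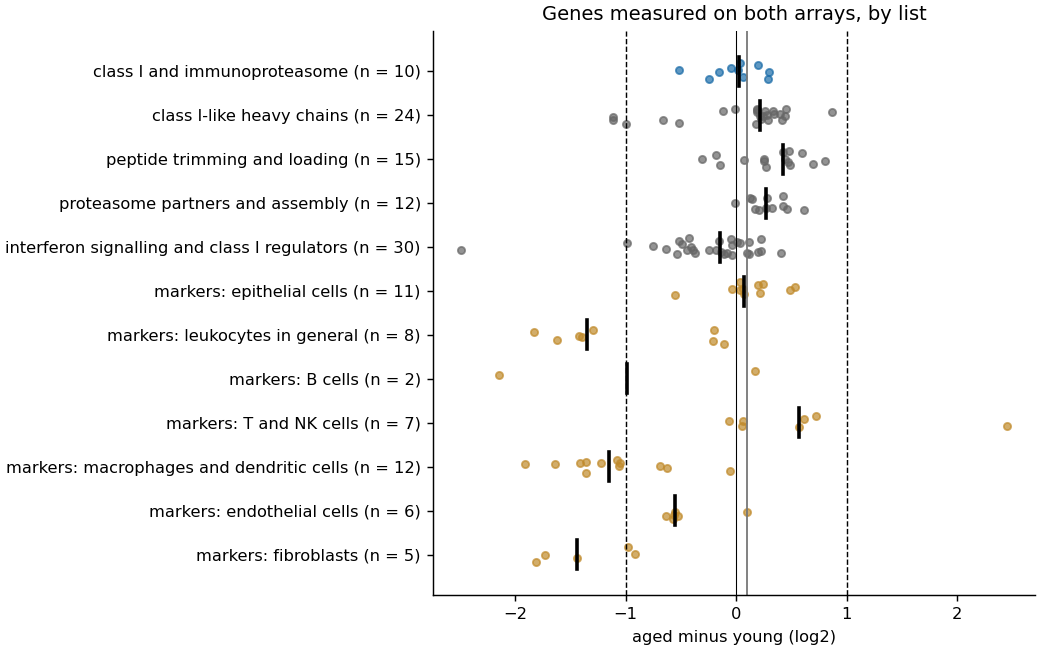
Aged minus young difference (log2) of genes measured on both arrays, 1 point per gene (spread vertically for sight), by list, with a black bar at the median of each list, a grey line at the median of all genes and dashed lines at 2-fold. The 10 class I and immunoproteasome genes (blue) lie between -0.52 and 0.29, whereas most leukocyte, macrophage and fibroblast genes lie left of -1.

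**Figure D5:**
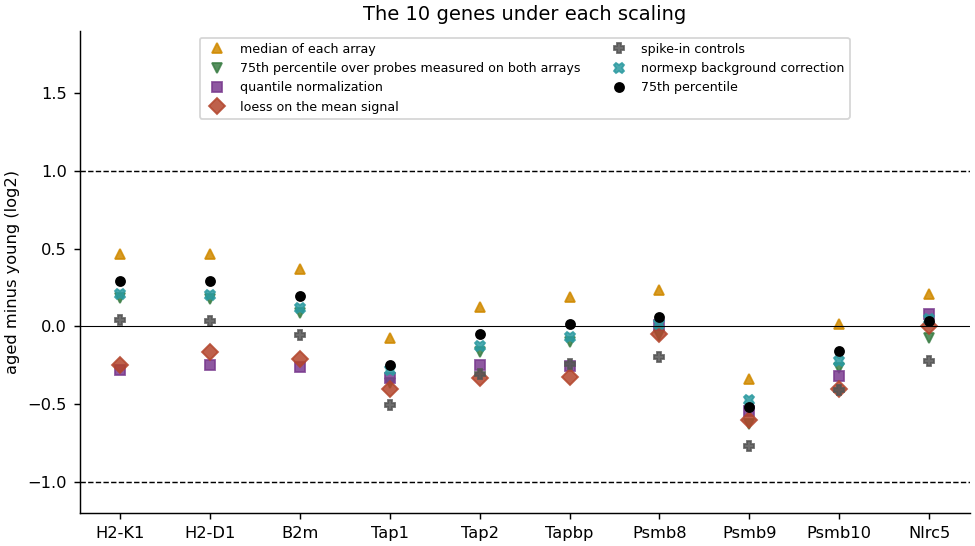
Aged minus young difference (log2) of the 10 genes under each scaling of the arrays, 1 symbol per scaling, with dashed lines at 2-fold. No symbol reaches 2-fold, Tap1 and Psmb9 lie below 0 under each, and the heavy chains and B2m lie on both sides of 0.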

How the data were processed

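Cy3-labelled RNA of each age was hybridized to 1 SurePrint G3 mouse array. The deposited files hold the intensity of each spot after background and trend correction with Agilent Feature Extraction 12.0.3.1, per the file headers, unscaled between arrays. The authors' processed table is the same intensity divided by 1 constant per array (229 and 176). Here, log2 of the deposited signal over the 75th percentile of the array was used. The methods name that percentile, and the authors' constants match it over all spots, while here it was taken over transcript spots (256 and 198). Outlier spots (90 and 93) were left out. No spot was saturated. The brightest probe well above background on at least 1 array stood for its gene, and 2-fold was the threshold. Where 1 array alone measured a probe, the fold is a lower limit, taken against the dimmest signal called well above background there (14.1 young, 14.3 aged) or the probe's own signal if that was higher. Of 56605 probes, 33767 were named through RefSeq accessions. Named were the 10 genes with all probes, proteasome partners and listed genes past 2-fold, of which the text gives some. Cd1d1, Calr, Pdia3, Irf1, Ifngr1, Ifng, Ifnb1, Ifnl3, Cd3e, Cd4, Cd8a, Cd79a and Pax5 were added after their values were seen. Genes, lists and alternatives were chosen with earlier results of these data known. The steps were tested on simulated data (R 4.3.3, limma 3.58.1, Python 3.11.15).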

Additional observations from a re-analysis of the deposited data

How the results depend on the processing

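With 1 array per age, no alternative leaves out a replicate. No paired analysis was possible because each age has 1 sample. The counts of genes 2-fold higher and 2-fold lower stayed at 0 under all 13 alternatives. The median difference of the 10 genes, 0.03, moved by more than the software's error under 3 of them, to -0.26 with quantile normalization, -0.29 with loess and -0.23 with the arrays set level on spike-in controls. Over single genes and pairs of subunits, 146 values moved by less than the error or not at all, and 23 by more. Changes of filter, kept outlier spots and raised dim values left every one of these values as it was. Scalings by 1 constant per array cannot change the pairs. The sign of 8 genes, all but Tap1 and Psmb9, turned under at least 1 alternative, each time at under 2-fold. The cause was not tested. The median of all genes shifted by 0.17 when arrays were centred on the median, by -0.11 with the 75th percentile over probes measured on both arrays, by -0.14 with loess and by -0.26 with the spike-in controls. Relative to the median of all genes, 7 of the 10 genes lay lower under the 75th percentile, and between 7 and 9 did so under the alternatives. Averaging the probes of a gene moved B2m to -0.09 and Tap1 to -0.41. Signal over background limits Nlrc5 and the dimmer probes of Tap1, Tapbp and B2m most.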
